A study of Mus musculus with 21 samples.

Results

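Hox genes encode homeodomain transcription factors that give cells their address along the body axis, and the mouse carries 39 of them in 4 clusters, HoxA to HoxD. The gene rows of the deposited count tables were searched for symbols made of Hoxa, Hoxb, Hoxc or Hoxd and a number from 1 to 13, and all 39 were found among 24495 gene rows: 11 in HoxA, 10 in HoxB, 9 in HoxC and 9 in HoxD. The search itself used symbols and no measured value, but this set was chosen with earlier results of these data known. RNA-seq had been done on male germ cells sorted by green fluorescence from an Oct4-GFP reporter, in 21 libraries of 7 groups with 3 biological replicates each. Tex15 encodes a germ cell protein needed for the silencing of transposons. The groups were heterozygous cells (HT, Tex15+/-) and knockout cells (KO, Tex15-/-) from embryonic day 16.5 (E16.5), from embryonic day 18.5 (E18.5) and from shortly after birth (D2.5), with wild-type cells (WT) at D2.5 only. The postnatal age is labelled both as postnatal day 2 and as d2.5. All embryos and pups came from matings of Tex15 heterozygotes on a mixed strain background, and all cells, controls included, carried the reporter. Whether animals were pooled is not given in the sources used here.

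Hox clusters are a textbook target of the Polycomb repressive complexes, which keep them silent in cells that do not use them, while trithorax-group methyltransferases and demethylases oppose that silencing. Their promoters lie in CpG-rich DNA that usually stays free of DNA methylation. Male germ cells between fetal life and birth rebuild DNA methylation across the genome, and Tex15 acts on transposons in that window. Hox genes thus differ in their textbook mode of silencing from the germline genes and transposons that DNA methylation controls.

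The promoters of Hoxa11, Hoxb4 and Hoxb8 are shown as examples of genes with different values. Hoxa11 lost all its counts at D2.5 and Hoxb8 rose from E18.5 to D2.5. Hoxb4 had the highest mean level of the 39 over all 21 libraries. Each line gives the 250 bases before the RefSeq start of transcription (build GRCm38.p6), 5′ to 3′ on the gene's strand, with every CpG in capitals. They lie at chr6:52245811-52246060 (minus strand, Hoxa11), chr11:96318017-96318266 (plus strand, Hoxb4) and chr11:96281655-96281904 (plus strand, Hoxb8).
Hoxa11: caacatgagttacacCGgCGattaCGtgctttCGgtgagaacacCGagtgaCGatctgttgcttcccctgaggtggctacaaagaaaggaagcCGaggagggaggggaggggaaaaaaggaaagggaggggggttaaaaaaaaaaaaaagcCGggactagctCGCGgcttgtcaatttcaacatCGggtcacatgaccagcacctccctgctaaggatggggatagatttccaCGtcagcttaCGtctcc
Hoxb4: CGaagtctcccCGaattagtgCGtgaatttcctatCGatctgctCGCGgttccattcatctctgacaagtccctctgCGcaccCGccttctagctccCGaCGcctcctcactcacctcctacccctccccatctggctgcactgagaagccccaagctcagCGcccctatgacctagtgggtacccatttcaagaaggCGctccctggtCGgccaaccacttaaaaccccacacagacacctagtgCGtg
Hoxb8: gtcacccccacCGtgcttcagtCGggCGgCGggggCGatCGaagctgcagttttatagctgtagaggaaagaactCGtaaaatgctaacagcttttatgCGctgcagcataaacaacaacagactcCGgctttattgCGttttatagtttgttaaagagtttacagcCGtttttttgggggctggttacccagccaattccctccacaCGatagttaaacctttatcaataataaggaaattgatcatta
The Hoxa11 window held 13 CpG, the Hoxb4 window 14 and the Hoxb8 window 12. RefSeq promoters of this length were found for 22 of the 39 genes, 24 windows in all, and they held 2 to 35 CpG with a median of 12.5. Over all 32851 promoters of the table the median was 6, and 92.1% held at least 1 CpG on either strand.

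Gene counts summed to 6063632 to 11884109 per library, and the 39 Hox genes together took 236 to 2029 of them, so each value below rests on few reads. A level is given in counts per 1000000 gene counts after TMM scaling (CPM), and 3 counts in a library correspond to 0.224 to 0.556 CPM. Tex15 read 741 to 1049 CPM in HT and 2.90 to 3.72 CPM in KO before birth. At D2.5 it read 3541 to 4338 CPM in WT, 1764 to 2082 CPM in HT and 15.9 to 23.6 CPM in KO, so every library matched its labelled genotype. The 12 germ cell markers summed to 3515 to 8854 CPM. The library E16.5 HT replicate 1 stood apart, with 22.8 CPM of Hox RNA against 64.8 and 80.3 CPM in the other two of its group. The library E18.5 KO replicate 1 was the highest of its group for 31 of the 39 genes.

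Hox RNA was scarce in these germ cells at every age, and the shares of the clusters in it were not the same at E18.5 and D2.5. Summed over the 39 genes it came to 56.0 ± 29.8 CPM in HT and 64.0 ± 19.9 CPM in KO at E16.5 (mean ± SD, n = 3 here and below). At E18.5 the sum was 145 ± 11.2 CPM in HT and 139.9 ± 39.4 CPM in KO, and all 6 libraries lay above all 6 of E16.5. At D2.5 it was 74.6 ± 8.94 CPM in WT, 95.6 ± 15.6 CPM in HT and 119 ± 16.3 CPM in KO. At E18.5 all 39 genes had a count in some library and 36 reached 10 counts in at least 1 library. At D2.5 7 genes had no count in any of 9 libraries (Hoxa4, Hoxa6, Hoxa7, Hoxa11, Hoxc11, Hoxc12 and Hoxd12), and 23 reached 10 counts somewhere. HoxB differed from HoxA in this respect: all 10 HoxB genes reached 10 counts in a D2.5 library, against 1 of 11 HoxA genes.

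**Figure D1:**
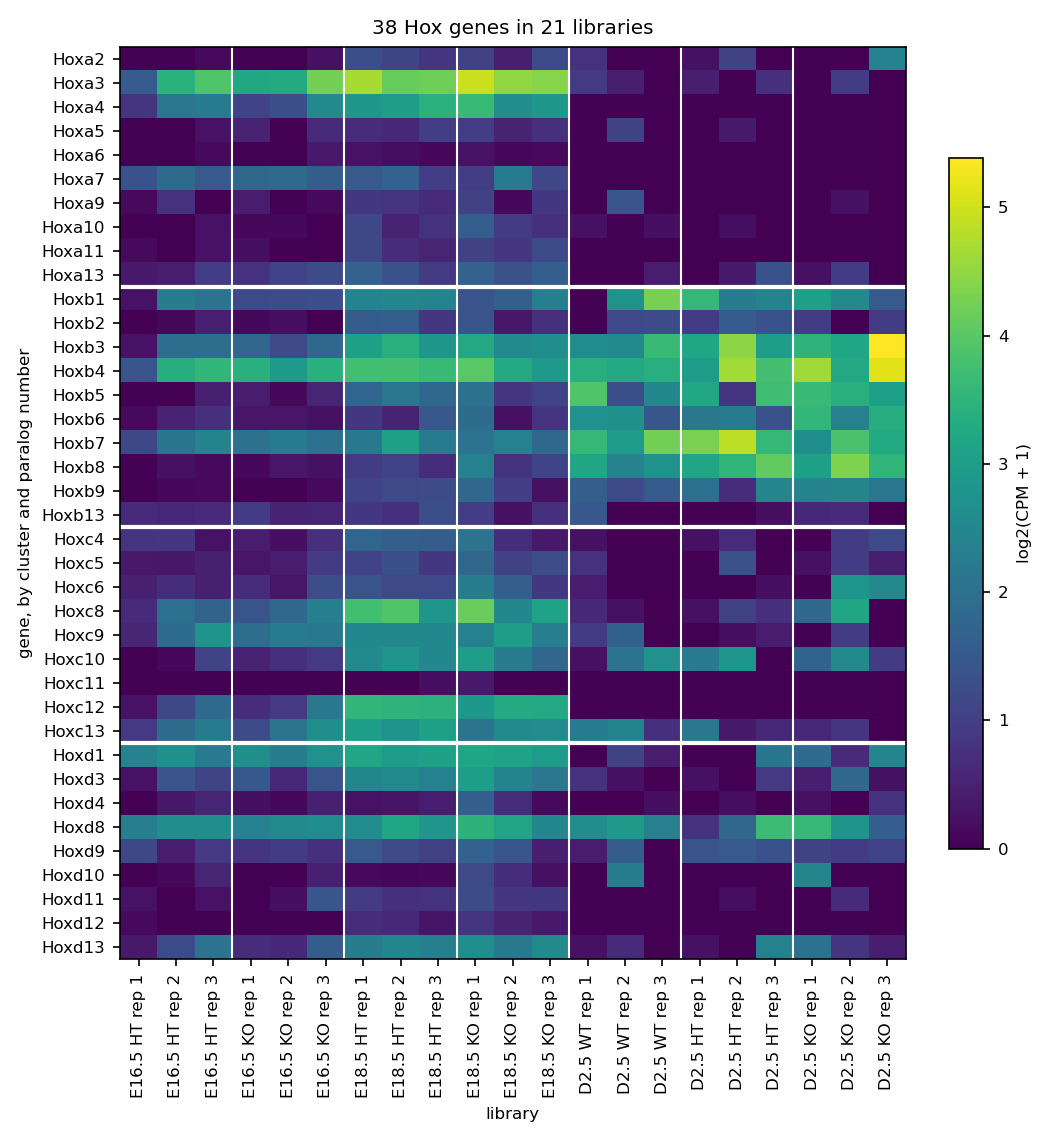
Heat map of log2(CPM + 1) for 38 of the 39 Hox genes (rows, by cluster and paralog number) in the 21 libraries (columns, 3 per group). Apart from Hoxa2 in KO replicate 3, the HoxA rows are dark or nearly so in the 9 D2.5 libraries, where Hoxa4, Hoxa6, Hoxa7 and Hoxa11 have no count. The rows of Hoxb3, Hoxb4, Hoxb7 and Hoxb8 are bright there, while Hoxb5 and Hoxb6 are dim in some of these libraries.

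Compared per kilobase of transcript, which allows levels to be set side by side between genes, the highest means in E18.5 HT cells were those of Hoxc12 (9.998 CPM per kb), Hoxa3 (7.54), Hoxc8 (5.83), Hoxa4 (4.88) and Hoxb4 (4.74). In D2.5 HT cells the leading places all went to HoxB: Hoxb7 (14.95 CPM per kb), Hoxb4 (5.68), Hoxb8 (4.38), Hoxb5 (3.78) and Hoxb3 (3.77). Hoxa3 and Hoxc12 dropped out of the leading genes. RefSeq gene spans of Hoxa3 overlap Hoxa4, Hoxa5 and Hoxa6, that of Hoxb3 overlaps Hoxb4, that of Hoxd3 overlaps Hoxd4, and Hoxd10 overlaps Hoxd11. Antisense genes overlap Hoxa3, Hoxa5, Hoxa6, Hoxa11, Hoxb2, Hoxb3, Hoxb5, Hoxb6 and Hoxd3. Whether counting used strand is not given in the sources used here, so reads within these overlaps cannot be told apart.

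With all libraries in the fit, no Hox gene passed the threshold between KO and HT at any age. In edgeR's quasi-likelihood test with Benjamini-Hochberg adjustment over all genes tested (threshold 0.05), 0 of 18 Hox genes tested differed between KO and HT at E16.5, where 0.00618% of all genes tested were called. At E18.5 0 of 28 were called against 2.14% of all genes, and at D2.5 0 of 12 against 0.153%. At the same D2.5 age 0 of 12 differed between KO and WT (0.216% of all genes) and 0 of 12 between HT and WT (0.00696%). DESeq2 and limma-voom also called 0 Hox genes in each of these comparisons. The numbers with an unadjusted p under 0.05 were 0 at E16.5, 2 at E18.5, 0 in KO against HT at D2.5, 2 in KO against WT and 0 in HT against WT. Over all genes they were 190 of 16185 at E16.5, 1478 of 18199 at E18.5 and 1036 of 14367 in KO against HT at D2.5. In KO against WT 1116 of 14367 genes were under 0.05, and in HT against WT 488 of 14367. Genes left out by the filter on low counts (21 of the 39 for the E16.5 table, 11 for E18.5, 27 for D2.5) were not tested.

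At E18.5, where 377 genes (2.07%) were higher and 12 (0.0659%) lower in KO over the whole table, the Hox genes lay on both sides of 0. Of the 28 tested, 13 had a log2 change above 0 and 15 below, with a median of -0.06 beside -0.00 over all 18199 genes tested. By cluster the medians were 0.24 in HoxA (7 genes), -0.44 in HoxB (8), -0.20 in HoxC (8) and 0.11 in HoxD (5). In 3 genes the KO libraries all lay below the HT libraries without overlap, and in 0 genes all above. Over all genes tested 5.52% were lower without overlap and 8.18% higher.

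The 2 genes with an unadjusted p under 0.05 were among those 3. Hoxb1, which specifies hindbrain segments, read 4.41, 4.63 and 4.41 CPM in the HT libraries and 1.66, 2.08 and 4.04 CPM in the KO libraries, the HT values being the higher ones throughout. Its log2 change was -0.79 (SE 0.34, edgeR adjusted p = 0.52). Hoxc13, known for its role in hair and nail, read 6.98, 5.67 and 7.38 CPM in HT and 3.21, 4.87 and 5.07 CPM in KO. Its log2 change was -0.60 (SE 0.26, edgeR adjusted p = 0.54). Hoxc12, its neighbour, read 10.7, 10.3 and 9.95 CPM in HT and 6.33, 8.85 and 8.54 CPM in KO, with a log2 change of -0.38. Neither Hoxb1 nor Hoxc13 nor Hoxc12 passed the adjusted threshold.

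The more abundant members show how far a difference could be bounded at E18.5. Hoxa3, needed for the pharyngeal organs, read 24.5, 16.6 and 17.4 CPM in HT and 29.8, 21.7 and 20.4 CPM in KO, and the groups overlapped. Its log2 difference was 0.29 with a 95% interval of -0.10 to 0.69. Hoxb4, a regulator of blood stem cells, read 12.4, 12.8 and 11.3 CPM in HT and 15.2, 8.49 and 6.48 CPM in KO, with a log2 difference of -0.28 (interval -0.80 to 0.24). For both genes a change of 2-fold in either direction lay outside the interval. Hoxb3, whose gene span overlaps Hoxb4, read 7.39, 9.40 and 6.18 CPM in HT and 8.47, 4.87 and 5.26 CPM in KO. Hoxd1 read 8.11, 6.79 and 7.46 CPM in HT and 7.99, 7.76 and 6.76 CPM in KO, with a log2 difference of 0.01 (interval -0.42 to 0.43). Hoxd8 read 5.03, 8.06 and 6.02 CPM in HT and 10.2, 7.85 and 4.60 CPM in KO, a difference of 0.23 (interval -0.34 to 0.81). The groups overlapped in each of these 5 genes, and the sign for Hoxd1 and Hoxd8 was not stable when libraries were left out.

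The largest difference in size among the tested Hox genes at E18.5 was that of Hoxb8, which read 0.924, 1.12 and 0.642 CPM in HT and 4.09, 0.722 and 1.13 CPM in KO. Replicate 1 alone held the high KO value. The log2 difference was 1.11 (SE 0.59, edgeR adjusted p = 0.697) with all libraries and 0.04 without that library. Hoxc8, a thoracic gene, read 12.4, 14.3 and 6.02 CPM in HT and 16.9, 4.60 and 7.70 CPM in KO, again with its highest value in KO replicate 1. Without that library 1 Hox gene was called, Hoxc4, lower in KO with a log2 change of -2.19 (SE 0.53, edgeR adjusted p = 0.0481). The HT libraries held 2.36, 2.09 and 2.01 CPM of Hoxc4 and the KO libraries 3.12, 0.632 and 0.282 CPM.

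**Figure D2:**
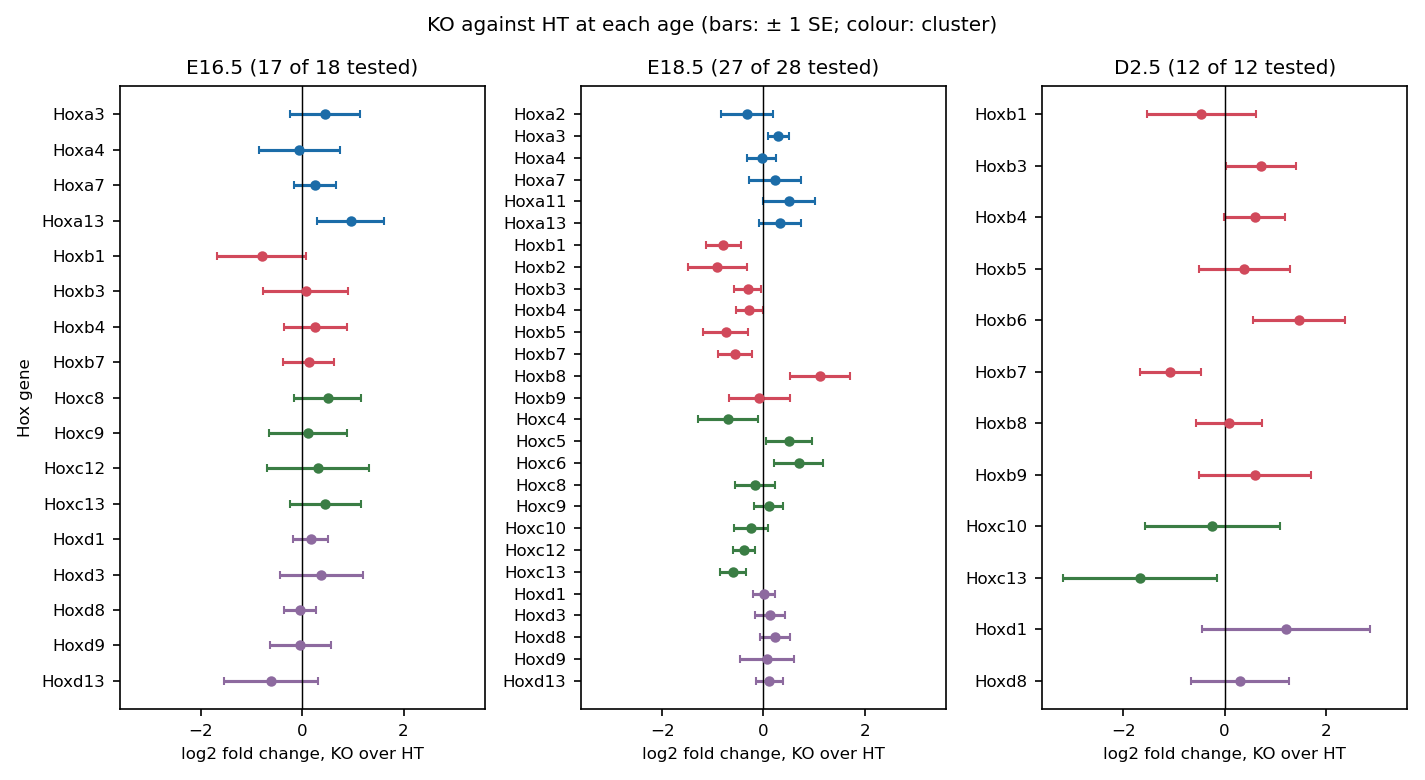
Log2 change of KO over HT (horizontal axis) for the Hox genes tested (vertical axis; 17 of 18, 27 of 28 and 12 of 12 are drawn), 1 panel per age, with bars of 1 SE and colours for the 4 clusters. They scatter on both sides of 0 and none passed the adjusted threshold.

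At E16.5 the KO and HT libraries overlapped for every Hox gene tested, while 6.26% of all genes were separated. Hoxa3 read 1.93, 9.91 and 14.0 CPM in HT and 8.29, 8.86 and 18.1 CPM in KO, and Hoxb4 read 1.64, 9.29 and 10.8 CPM in HT and 9.67, 6.56 and 9.74 CPM in KO. Hoxd8 read 3.96, 5.40 and 5.38 CPM in HT and 4.23, 4.85 and 5.16 CPM in KO. The low HT values of Hoxa3, Hoxb4 and Hoxd8 all belong to replicate 1. The log2 changes of the 18 genes ran from -0.80 to 0.96, with a median of 0.15 beside -0.01 over all genes tested.

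Other members with a call elsewhere stood lower at E16.5. Hoxa4 read 0.772, 3.36 and 3.74 CPM in HT and 1.12, 1.45 and 4.97 CPM in KO. Hoxa11 read 0.0965, 0 and 0.192 CPM in HT and 0.173, 0 and 0 CPM in KO. The highest Hoxa4 values were those of replicate 3 in both genotypes, and Hoxa11 was at or near 0 throughout. Hoxa7 read 2.505, 2.64 and 2.01 CPM in KO. Hoxb1 read 0.193, 3.81 and 3.17 CPM in HT and 1.30, 1.36 and 1.43 CPM in KO. Hoxb3 read 0.193, 2.83 and 2.88 CPM in HT and 2.42, 1.28 and 2.48 CPM in KO. HT replicate 1 was the lowest of the 6 libraries for both HoxB genes. Hoxb5 read 0.346, 0.0851 and 0.478 CPM in KO. Hoxb6 read 0.0965, 0.443 and 0.672 CPM in HT and 0.259, 0.255 and 0.191 CPM in KO. Hoxb7 read 1.25, 3.27 and 4.32 CPM in HT and 3.02, 3.58 and 3.06 CPM in KO. Hoxb5 and Hoxb6 lay under 1 CPM in all 6 libraries and Hoxb7 above it in all 6.

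In HoxC the anterior members were low. Hoxc4 read 0.772, 0.797 and 0.192 CPM in HT and 0.346, 0.170 and 0.669 CPM in KO. Hoxc6 read 0.386, 0.620 and 0.384 CPM in HT and 0.605, 0.255 and 1.43 CPM in KO. Hoxc8 read 0.579, 2.92 and 2.30 CPM in HT and 1.64, 2.55 and 4.01 CPM in KO. HT replicate 1 held the lowest Hoxc8 value. Hoxc9 read 0.483, 2.74 and 5.95 CPM in HT and 2.85, 3.58 and 3.53 CPM in KO. Hoxc13 read 0.869, 2.74 and 3.74 CPM in HT and 1.38, 3.24 and 5.44 CPM in KO. HT replicate 1 was again the lowest of the 6 for both. In KO Hoxc10 read 0.432, 0.681 and 0.860 CPM. In KO Hoxc12 read 0.605, 0.851 and 3.53 CPM, replicate 3 being the highest of the 6 libraries. In HoxD, Hoxd1 read 4.25, 5.49 and 3.65 CPM in HT and 5.44, 3.83 and 5.63 CPM in KO. Hoxd3 read 0.193, 1.68 and 1.15 CPM in HT and 1.81, 0.511 and 1.62 CPM in KO. Hoxd1 did not go below 3.65 CPM in any of the 6, and HT replicate 1 was the lowest for Hoxd3.

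At D2.5 the values of a gene differed widely between replicates of the same genotype. Hoxb3 read 5.11, 4.97 and 11.6 CPM in WT, 8.16, 20.9 and 7.04 CPM in HT and 10.3, 7.97 and 40.8 CPM in KO. Hoxb4 read 9.52, 8.46 and 9.59 CPM in WT, 6.89, 24.1 and 12.7 CPM in HT and 23.6, 8.53 and 34.2 CPM in KO. A single KO library, replicate 3, held the highest value of both genes, whose spans overlap. These were the 2 genes with an unadjusted p under 0.05 in KO against WT, with log2 changes of 1.46 (SE 0.70) and 1.27 (SE 0.61) and an edgeR adjusted p of 0.638 for both. Without KO replicate 3 the log2 changes were 0.35 for Hoxb3 and 0.81 for Hoxb4. Hoxb1 read 0, 5.70 and 18.3 CPM in WT, 11.1, 3.81 and 4.30 CPM in HT and 7.20, 4.82 and 1.85 CPM in KO, from none to the highest value within WT alone. Hoxd8 read 5.29, 6.44 and 4.11 CPM in WT, 0.726, 2.44 and 11.9 CPM in HT and 10.98, 5.93 and 2.03 CPM in KO. Hoxd10, a lumbar and limb gene outside the tested set, had 21 counts in WT replicate 2, 25 counts in KO replicate 1 and none in the other 7 libraries of that age (it was singled out after its values were seen).

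The summed Hox level at D2.5 was 1.59-fold higher in KO than in WT, and the 3 KO libraries (108 to 138 CPM) lay above the 3 WT libraries (67.0 to 84.4 CPM), while HT libraries (79.4 to 110.5 CPM) overlapped both. This is a description of a sum and has no test. Markers of stromal and peritubular cells, 14 genes in all, summed to 230.5 to 549.6 CPM in WT, 239 to 374 CPM in HT and 362 to 867 CPM in KO. Their mean was higher in KO (589 CPM) than in WT (391 CPM), with overlap, and lowest in HT (323 CPM). In KO against WT 0 of 13 tested were called (0.216% of all genes). Means of the other somatic cell lists were also higher in KO than in WT, and that of germ cell markers was lower. The part of these lists in the Hox level was not tested. In bulk samples, a few cells of another type and a little RNA in every cell cannot be told apart. The difference of the KO effect between ages was tested in a single fit of the 18 HT and KO libraries. It passed for 0 of 30 Hox genes between E18.5 and E16.5 (0% of all genes called). It also passed for 0 of 30 between D2.5 and E18.5 (0.0531% of all genes), and DESeq2 and limma-voom called 0 in both. Between E18.5 and E16.5 an unadjusted p under 0.05 was found for 0 Hox genes and for 156 of all 18815 genes. Between D2.5 and E18.5 it was found for 1957 of all 18815 genes, 1 Hox gene among them. That gene was Hoxc6, with 0, 0 and 0.172 CPM in D2.5 HT and 0, 6.12 and 4.80 CPM in D2.5 KO libraries. Its difference was 5.02 on the log2 scale (SE 1.75, edgeR adjusted p = 0.317).

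Between E16.5 and E18.5 a few Hox genes rose and none fell. In HT, in the fit of 18 libraries, 5 of 30 Hox genes tested rose and 0 fell, where 4.81% of all genes rose and 8.39% fell. In the fit of the E16.5 libraries alone 18 Hox genes passed the filter, and in that of E18.5 28. The others of the 30 entered mainly through later ages, which favours rises and separation upwards in both genotypes. The libraries of the 2 ages did not overlap for 23 of the 30, all higher at E18.5, beside 30.3% of all genes. The median log2 change was 1.56 for the Hox genes and 0.11 for all genes. The risers were 3 genes of HoxB, Hoxb5, Hoxb8 and Hoxb9, and 2 posterior genes of HoxC, Hoxc10 and Hoxc12. In KO cells 2 of 30 rose, Hoxb8 and Hoxb9, and 0 fell (1.65% of all genes rose and 2.9% fell), and both had risen in HT. The ages were separated for 19 of 30, all higher at E18.5, beside 29.5% of all genes.

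Hoxb5 read 0, 0 and 0.384 CPM in the E16.5 HT libraries and 2.36, 3.36 and 2.49 CPM in the E18.5 HT libraries. The log2 change was 4.30 (SE 1.09, edgeR adjusted p = 0.0168). Its first values are at or near 0. Hoxb8, known from blood progenitors and microglia, read 0, 0.177 and 0.0960 CPM and then 0.924, 1.12 and 0.642 CPM in HT, a log2 change of 3.10 (edgeR adjusted p = 0.0316). In KO it read 0.0864, 0.255 and 0.191 CPM and then 4.09, 0.722 and 1.13 CPM (3.38, adjusted p = 0.0251). The E18.5 libraries were the higher ones in both genotypes. Hoxb9 read 0, 0.0885 and 0.0960 CPM and then 1.13, 1.27 and 1.36 CPM in HT (4.07, adjusted p = 0.0234). In KO it read 0, 0 and 0.0955 CPM and then 2.44, 0.993 and 0.188 CPM (4.81, adjusted p = 0.028). Hoxb9 had at most 1 count in any E16.5 library. Hoxc10, a lumbar gene, read 0, 0.0885 and 1.15 CPM and then 4.93, 5.97 and 4.73 CPM in HT (3.62, adjusted p = 0.0435). Hoxc12 read 0.193, 1.24 and 2.59 CPM and then 10.7, 10.3 and 9.95 CPM in HT (2.93, adjusted p = 0.032). All 5 were separated between the ages without overlap.

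The 3 members with the highest mean CPM in E16.5 HT did not pass. Hoxa3 had a log2 change of 1.18 in HT (adjusted p = 0.233), Hoxb4 of 0.75 (adjusted p = 0.387) and Hoxd8 of 0.37 (adjusted p = 0.731). Hoxa7 stood at 1.54, 2.66 and 1.82 CPM at E16.5 and 1.85, 2.24 and 0.963 CPM at E18.5 in HT, the lowest log2 change of the tested members at -0.26. Summed markers of 3 other cell types of the testis were also higher at E18.5 in HT without overlap, and their part in the result was not tested. The sum of the 14 stromal and peritubular markers went from 93.3 to 167 CPM to 242 to 310 CPM, and the 9 endothelial markers from 91.0 to 127 CPM to 179.6 to 195 CPM. The 8 Leydig cell markers went from 15.4 to 28.5 CPM to 37.5 to 39.7 CPM. The ages overlapped for the sums of Sertoli cell markers (23.3 to 81.4 and 74.7 to 90.7 CPM), macrophage and blood markers (14.3 to 38.8 and 37.2 to 39.6 CPM) and mesonephric and duct markers (127 to 186 and 139.8 to 161 CPM). The 12 germ cell markers summed to 5879 to 8854 CPM at E16.5 and 3739 to 4381 CPM at E18.5 in HT, and 7 of the 12 fell in HT and 6 in KO. Genes with at least 10 counts made up 57.7% to 68.8% of all genes at E16.5 and 72.4% to 74.6% at E18.5. The calls rested on the choice of libraries: in HT 0 Hox genes were called without E16.5 replicate 1, E16.5 replicate 2 or E18.5 replicate 2, 1 without E18.5 replicate 1 or 3, and 8 without E16.5 replicate 3. In KO 0 were called without E16.5 replicate 1, E16.5 replicate 2 or E18.5 replicate 1, and a fit of the 12 libraries of both ages alone called 13 in HT and 10 in KO.

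**Figure D3:**
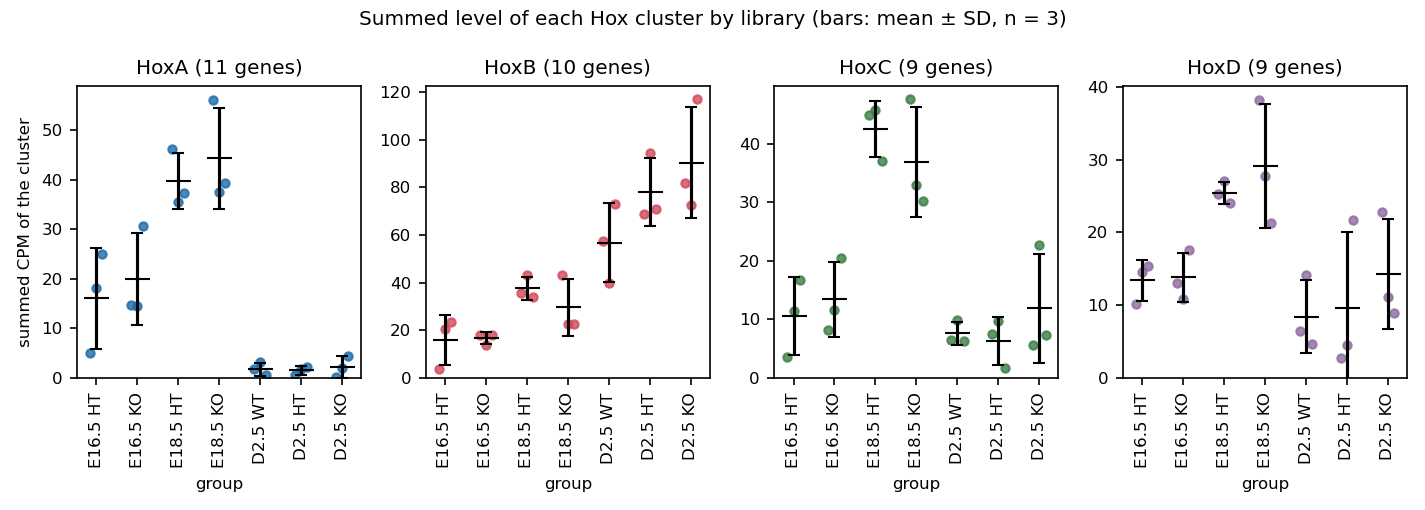
Summed CPM of each Hox cluster (vertical axis, linear from 0) in every library of the 7 groups (horizontal axis), with the mean and SD of 3 libraries. HoxA goes from 39.7 CPM in E18.5 HT to 1.54 CPM in D2.5 HT, and HoxB from 37.6 to 78.1 CPM.

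Between E18.5 and D2.5 the summed level of HoxB was higher at the later age and those of HoxA, HoxC and HoxD were lower. These sums are descriptions and have no test. In HT the HoxA sum went from 39.7 ± 5.68 to 1.54 ± 0.88 CPM (25.9-fold lower) and the HoxC sum from 42.5 ± 4.75 to 6.30 ± 4.14 CPM (6.75-fold lower). The HoxD sum went from 25.4 ± 1.56 to 9.65 ± 10.4 CPM (2.64-fold lower) and the HoxB sum from 37.6 ± 4.81 to 78.1 ± 14.1 CPM (2.08-fold higher). No library of the later age overlapped the earlier ones in any of the 4 sums. In KO the HoxA sum went from 44.3 ± 10.3 to 2.22 ± 2.13 CPM (20.0-fold lower) and the HoxB sum from 29.6 ± 11.9 to 90.4 ± 23.4 CPM (3.05-fold higher), again without overlap. The HoxC sum in KO went from 36.9 ± 9.33 to 11.9 ± 9.35 CPM (3.11-fold lower, no overlap) and the HoxD sum from 29.1 ± 8.51 to 14.3 ± 7.52 CPM (2.04-fold lower, with overlap). The WT libraries, which exist only at D2.5, held 1.80 ± 1.31 CPM of HoxA and 56.8 ± 16.6 CPM of HoxB. HoxB made up 25.9% ± 2.47 of all Hox RNA in E18.5 HT and 81.8% ± 7.19 in D2.5 HT, with 75.1% ± 14.1 in D2.5 WT and 75.3% ± 9.07 in D2.5 KO.

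Gene by gene, 2 of 30 Hox genes rose and 13 fell in HT, where 21.4% of all genes rose and 33.4% fell, and the median of all genes was itself -0.51 on the log2 scale. In KO 4 rose and 9 fell (21% and 34.2% of all genes, median -0.54). The Hox share of calls is thus close to that of the table in HT (15 of 30 against 54.8%) and in KO (13 of 30 against 55.2%). Counts by cluster are given as a description, and no difference between clusters was tested. In HoxA 5 of 7 tested fell and 0 rose in each genotype. No HoxA gene passed the filter in the fit of the D2.5 libraries alone, against 8 HoxB, 2 HoxC and 2 HoxD genes. The 7 HoxA genes thus entered through the earlier ages, where they were higher, so falls were favoured and rises hardly possible. In HoxB 0 of 9 fell, with 2 risers in HT, a share near that of all genes, and 4 in KO. In HoxC 6 of 8 fell in HT and 3 in KO, and in HoxD 2 of 6 fell in HT, again near the share of all genes, and 1 in KO. With 2 genes of each cluster in the D2.5 fit alone, most of these HoxC and HoxD genes also entered through the earlier ages. Falls were thus favoured there too. The median log2 change was 1.07 in HoxB in HT and 1.67 in KO. For HoxA it was -3.33 in HT and -3.45 in KO with members that had no count at D2.5 set at the bound that 3 counts over the group allow (-5.85 and -6.22 as fitted). For HoxC it was -3.47 and -1.59 and for HoxD -2.15 and -1.61, in HT and KO. The same 2 genes that rose in HT rose in KO (100% of the HT list and 50% of the KO list), and 9 genes fell in both (69.2% and 100%).

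Hoxa3, Hoxa4, Hoxa7 and Hoxa11 fell in both genotypes. Hoxa3 read 24.5, 16.6 and 17.4 CPM in E18.5 HT and 0.363, 0 and 0.687 CPM in D2.5 HT, 6 counts in all against 679. The fall was 56.9-fold by summed counts, and the log2 change was -5.79 (SE 0.93, edgeR adjusted p = 3.7e-05). In KO Hoxa3 went from 29.8, 21.7 and 20.4 CPM to 0, 0.927 and 0 CPM. Hoxa3 was the most abundant Hox gene of the E18.5 cells in CPM and nearly absent after birth, D2.5 WT included (0.881, 0.368 and 0 CPM). Hoxa4 read 6.36, 7.09 and 9.87 CPM in E18.5 HT and 11.4, 5.33 and 6.29 CPM in E18.5 KO, and had no count in any of the 9 D2.5 libraries. That makes it at least 46.9-fold lower in HT and at least 41.4-fold lower in KO, with a floor of 3 counts over the group (edgeR adjusted p = 4.95e-05 and 6.03e-05).

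Hoxa7, a thoracic gene, read 1.85, 2.24 and 0.963 CPM in E18.5 HT and 0.974, 3.70 and 1.22 CPM in E18.5 KO, and was at 0 in all D2.5 libraries (at least 10.1-fold and 10.9-fold lower). Hoxa11, which patterns the forearm and the uterus and whose promoter is printed above, read 1.23, 0.597 and 0.481 CPM in E18.5 HT and 1.07, 0.812 and 1.31 CPM in E18.5 KO. It too was at 0 in all D2.5 libraries, at least 4.36-fold lower in HT and 5.80-fold lower in KO (adjusted p = 0.00853 and 0.00522). The calls of these 4 genes held when each library was left out in turn and under every other setting in which the gene was tested.

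**Figure D4:**
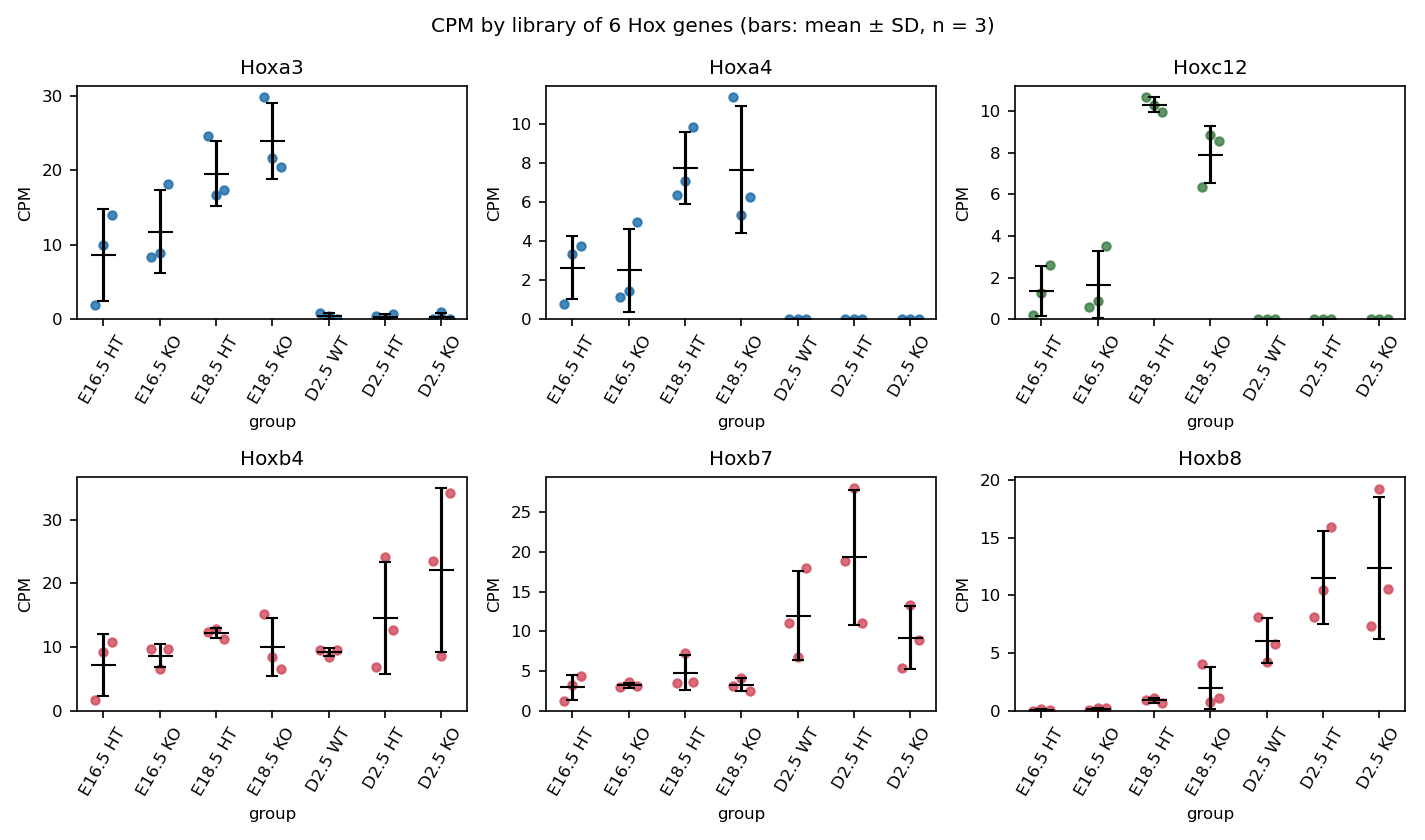
CPM (vertical axes, linear from 0) of Hoxa3, Hoxa4, Hoxc12, Hoxb4, Hoxb7 and Hoxb8 in every library of the 7 groups (horizontal axes), with the mean and SD of 3 libraries. Hoxa4 and Hoxc12 have no count in the 9 D2.5 libraries, and Hoxb8 lies above all earlier libraries in each of them.

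In HoxB the risers were neighbours in the middle of the cluster. Hoxb8 read 0.924, 1.12 and 0.642 CPM in E18.5 HT and 8.16, 10.5 and 16.0 CPM in D2.5 HT, a log2 change of 3.67 (SE 0.74, edgeR adjusted p = 0.00037). In KO it went from 4.09, 0.722 and 1.13 CPM to 7.38, 19.3 and 10.5 CPM (2.64, adjusted p = 0.00358). The D2.5 WT libraries read 8.11, 4.23 and 5.82 CPM, so all 9 libraries after birth lay above all 12 before it. Hoxb7 read 3.49, 7.31 and 3.61 CPM and then 18.9, 28.0 and 10.997 CPM in HT (2.00, SE 0.55, adjusted p = 0.00469). In KO it read 3.12, 4.15 and 2.53 CPM and then 5.40, 13.3 and 8.87 CPM (1.49, adjusted p = 0.0271). The later libraries were the higher ones in both genotypes, and D2.5 WT read 11.1, 6.81 and 17.98 CPM.

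Hoxb5 and Hoxb6 passed in KO. Hoxb5 read 3.02, 0.812 and 1.13 CPM and then 11.5, 9.45 and 7.21 CPM (2.503, adjusted p = 0.0231), and in D2.5 HT 8.34, 0.762 and 12.4 CPM (1.38, adjusted p = 0.18). Hoxb6 read 2.73, 0.181 and 0.751 CPM and then 10.8, 4.08 and 9.24 CPM (2.72, adjusted p = 0.0108). In HT Hoxb6 read 0.821, 0.448 and 1.77 CPM and then 3.45, 3.66 and 1.55 CPM (1.502, adjusted p = 0.135). In HT the 2 ages overlapped for both genes, and the difference of the KO effect between these ages passed for neither. D2.5 WT read 14.3, 1.47 and 4.62 CPM of Hoxb5 and 5.64, 5.52 and 1.71 CPM of Hoxb6. Hoxb9 read 2.12, 1.29 and 1.88 CPM in D2.5 WT, 2.90, 0.610 and 4.47 CPM in D2.5 HT and 4.32, 4.45 and 3.33 CPM in D2.5 KO. It went from a mean of 1.25 to 2.66 CPM in HT and from 1.21 to 4.03 CPM in KO without passing. The 5 genes Hoxb5 to Hoxb9 together read 8.72 to 13.5 CPM in E18.5 HT and 41.7 to 45.4 CPM in D2.5 HT, and 19.3 to 41.2 CPM in D2.5 WT. The anterior members did not pass in either genotype: Hoxb4 had a log2 change of 0.26 in HT and 1.14 in KO, Hoxb3 of 0.66 and 1.67, and Hoxb1 of 0.51 and 0.84. Hoxb13, at the far end of the cluster, was under the filter in this fit, with 35 counts over E18.5 HT and 1 over D2.5 HT (named after its values were seen). The other members too low for this fit were Hoxa5, Hoxa6, Hoxa9, Hoxa10, Hoxc11, Hoxd4, Hoxd10 and Hoxd12.

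In HoxC the fall was deepest for Hoxc12, with 10.7, 10.3 and 9.95 CPM in E18.5 HT, 6.33, 8.85 and 8.54 CPM in E18.5 KO and no count in any D2.5 library. It was at least 61.3-fold lower in HT and at least 43.3-fold lower in KO (adjusted p = 6.14e-05 and 0.000112). Hoxc9, which shapes thoracic motor columns, read 4.72, 4.63 and 4.73 CPM and then 0, 0.152 and 0.344 CPM in HT (-4.70, adjusted p = 0.00156). In KO it read 4.19, 6.95 and 3.94 CPM and then 0, 0.927 and 0 CPM (-3.97, adjusted p = 0.00344). Both genes fell in both genotypes, as did Hoxc13. Hoxc13 read 3.45, 0.305 and 0.515 CPM in D2.5 HT, 0.540, 0.741 and 0 CPM in D2.5 KO and 3.70, 4.41 and 0.685 CPM in D2.5 WT. Its log2 change was -2.24 in HT (adjusted p = 0.0339) and -3.32 in KO (adjusted p = 0.00703).

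Hoxc4, Hoxc6 and Hoxc8 fell in HT and did not pass in KO. Hoxc8 read 0.181, 1.07 and 0.687 CPM in D2.5 HT (-4.02, adjusted p = 0.00313) and 2.52, 7.97 and 0 CPM in D2.5 KO (-1.47, adjusted p = 0.172). Hoxc6 went from 1.64, 1.27 and 1.28 CPM in E18.5 HT to the D2.5 values given above (-4.34, adjusted p = 0.0154). Hoxc4 had 76 counts over E18.5 HT and 5 over D2.5 HT (-2.92, adjusted p = 0.0367). Hoxc10 kept 3.63, 6.10 and 0 CPM in D2.5 HT and 0.176, 3.13 and 5.65 CPM in D2.5 WT and did not pass (-0.68). In HoxD, Hoxd3 read 4.52, 4.93 and 4.17 CPM and then 0.181, 0 and 0.859 CPM in HT (-3.68, adjusted p = 0.0064) and passed in KO at -2.32 (adjusted p = 0.0446). Hoxd1 read 0, 0 and 3.26 CPM in D2.5 HT (-2.77, adjusted p = 0.0193) and 2.70, 0.556 and 4.43 CPM in D2.5 KO (-1.54, adjusted p = 0.149). Hoxd8 had a log2 change of -0.35 in HT and -0.26 in KO and passed in neither.

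The remaining values of these genes spread widely at D2.5. Hoxc4 read 0.176, 0 and 0 CPM in D2.5 WT, 0.181, 0.610 and 0 CPM in D2.5 HT and 0, 0.927 and 1.29 CPM in D2.5 KO. Hoxc6 read 0.353, 0 and 0 CPM in D2.5 WT and 3.90, 2.08 and 0.845 CPM in E18.5 KO. Hoxc8 read 0.529, 0.184 and 0 CPM and Hoxc9 0.881, 2.21 and 0 CPM in D2.5 WT. At least 1 WT library had no count of each of Hoxc4, Hoxc6, Hoxc8 and Hoxc9. Hoxc10 read 7.11, 3.79 and 2.44 CPM in E18.5 KO and 2.34, 5.005 and 0.924 CPM in D2.5 KO, and the ages overlapped. Hoxd1 read 0, 1.10 and 0.342 CPM in D2.5 WT. Hoxd3 read 0.705, 0.184 and 0 CPM in D2.5 WT, and in KO it went from 7.11, 4.42 and 3.38 CPM to 0.360, 2.41 and 0.185 CPM without overlap.

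Some of these calls rested on single libraries. In HT the fall of Hoxc4 was lost without any of E18.5 replicates 1, 2 and 3 and D2.5 replicates 1 and 3, that of Hoxc13 without E18.5 replicates 1, 2 or 3 or D2.5 replicates 2 or 3, and those of Hoxc6 and Hoxd1 without D2.5 replicate 1 or 2. Their highest adjusted p was 0.117, 0.121, 0.0587 and 0.0590. In KO the rise of Hoxb5 was lost without E18.5 replicate 2 or 3 (highest adjusted p 0.0783) and that of Hoxb7 without E18.5 replicate 1 or 3 or D2.5 replicate 2 (0.0839). The fall of Hoxd3 in KO was lost without E18.5 replicates 1, 2 or 3 or D2.5 replicates 1 or 3 (0.151). The other calls of this interval held in each such fit. In a fit of the 12 libraries of both ages alone, Hoxc4 and Hoxd1 in HT and Hoxd3 in KO also did not pass. The fall of Hoxd3 in KO was lost as well with a stricter filter and with the replicate block.

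Base composition moved with this age comparison over the whole table. For 4410 genes with a transcript GC content up to 45% the median log2 change in HT was 0.69, and for 871 genes above 60% it was -2.61. The 3 classes between them read 0.03, -0.76 and -1.68. In KO the lowest class read 0.67 and the highest -2.499. Transcript GC was similar in the 4 clusters, with a median of 53.1% in HoxA, 54.3% in HoxB, 52.4% in HoxC and 54.7% in HoxD. After a GC curve was taken out of each library, a step chosen after seeing the data, 5 Hox genes rose and 9 fell in HT (19.6% and 25.5% of all genes), and 7 rose and 8 fell in KO (19.2% and 26%). HoxA kept its 5 falls in each genotype, and HoxB had 4 risers in HT (Hoxb5 to Hoxb8) and 7 in KO (Hoxb3 to Hoxb9). In HoxC 4 fell in HT and 3 in KO. In HoxD 0 of 6 fell in either genotype, and Hoxd9 was the fifth riser in HT. The falls of Hoxc4, Hoxc13, Hoxd1 and Hoxd3 in HT and of Hoxd3 in KO no longer passed, with adjusted p of 0.0546, 0.175, 0.125, 0.0835 and 0.453.

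**Figure D5:**
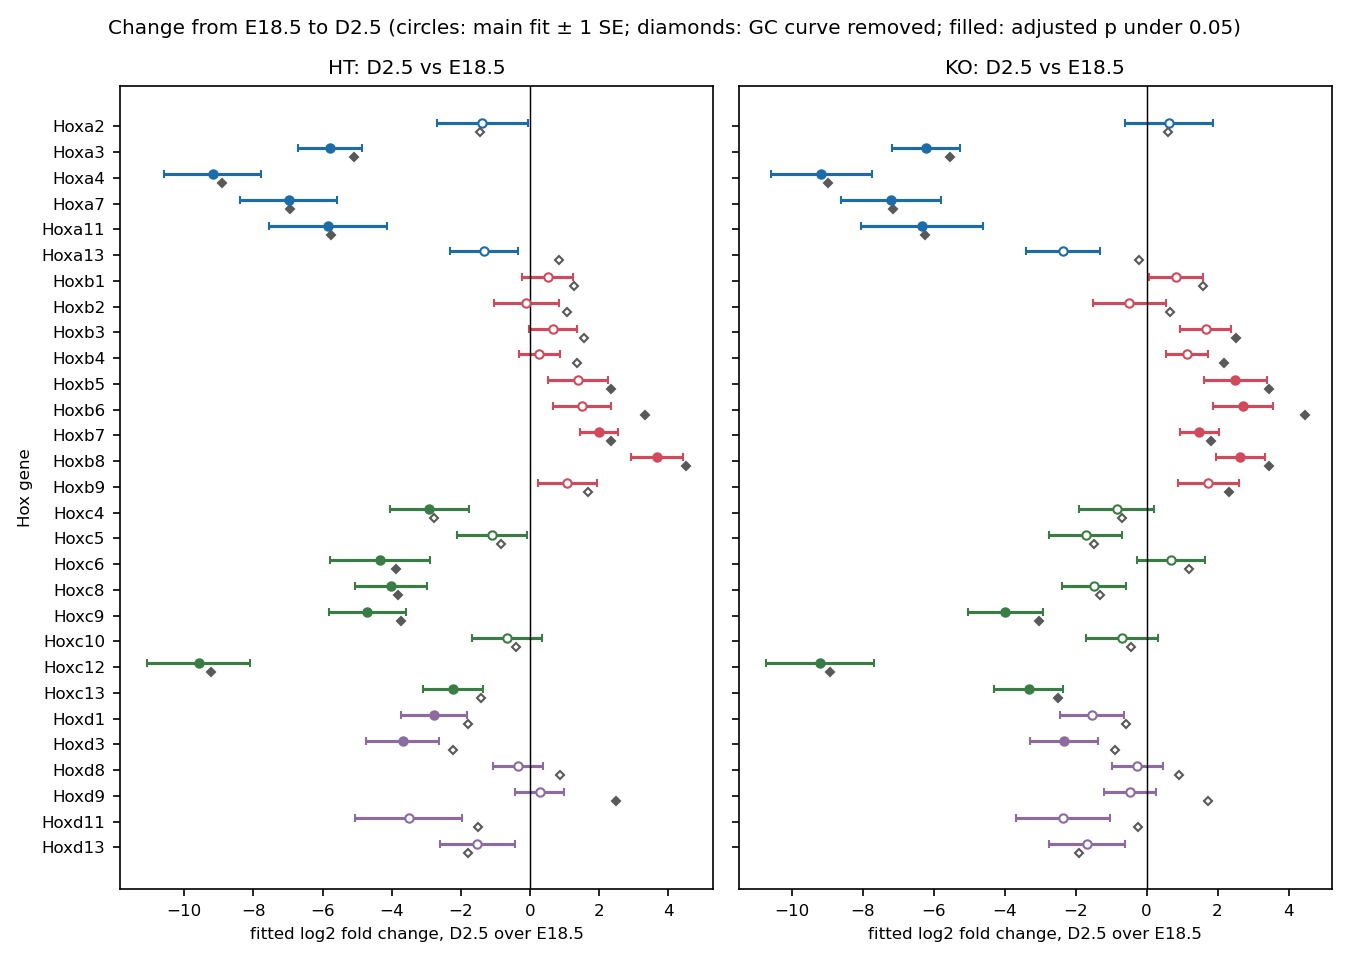
Fitted log2 change of D2.5 over E18.5 (horizontal axes) for 29 of the 30 Hox genes tested (vertical axis) in HT and KO, with bars of 1 SE, diamonds for the fit with the GC curve removed, and filled marks for an adjusted p under 0.05. Hoxa3, Hoxa4, Hoxa7 and Hoxa11 lie left of 0 in both fits and both genotypes, while Hoxb5 to Hoxb8 lie right of it. Values beyond -5 belong to genes with few or no counts at D2.5 and are not bounds.

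Other measures also moved between these ages, and their part was not tested. Genes with at least 10 counts made up 72.4% to 74.6% of all genes at E18.5 and 52.5% to 56.1% at D2.5. Stromal and peritubular markers summed to 242 to 310 CPM in E18.5 HT and 239 to 374 CPM in D2.5 HT, and the 9 endothelial markers to 179.6 to 195 CPM and 129.9 to 145 CPM. The 12 Sertoli cell markers summed to 74.7 to 90.7 CPM and 61.2 to 91.4 CPM. Other lists had higher sums at D2.5 in HT without overlap: macrophage and blood markers went from 37.2 to 39.6 CPM to 78.0 to 94.0 CPM and Leydig cell markers from 37.5 to 39.7 CPM to 49.5 to 78.0 CPM. Mesonephric and duct markers went from 139.8 to 161 CPM to 189 to 223 CPM, and germ cell markers from 3739 to 4381 CPM to 5879 to 6235 CPM. In KO the stromal and peritubular sum went from 264 to 301 CPM to 362 to 867 CPM, also without overlap. Gene by gene in HT, 2 of 12 germ cell markers rose and 6 fell, with a median log2 change of -1.18. Of 9 duct markers 2 rose and 3 fell (median -1.76). Of 7 macrophage and blood markers tested 2 rose and 3 fell (-0.69), and of 7 Leydig cell markers 2 rose and 2 fell (1.28). Over all genes 21.4% rose and 33.4% fell. Each age was deposited as a table of its own, so age and any batch of that age cannot be told apart.

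Genes that read, write or guard the Hox state were described from fixed lists. None of 34 Polycomb repressive complex genes, 12 trithorax and demethylase genes or 52 other developmental regulators known as Polycomb targets differed between KO and HT at E18.5 in edgeR. The same was true of 24 germline genes silenced by DNA methylation in somatic cells. Over all genes tested 2.14% were called at this age, so lists of this size could hold 0 calls at that share. Suz12, a core subunit of the complex that methylates histone H3, had a log2 change of 0.06 (SE 0.15), and Kmt2a, a methyltransferase that maintains Hox transcription, of 0.32 (SE 0.16). Of the Pbx and Meis cofactors with which Hox proteins bind DNA, 0 of 9 passed. Of the Hox-like and cluster-flanking homeobox genes 1 of 9 passed: Meox2, a mesoderm gene, read 0.513 to 0.672 CPM in HT and 1.99 to 3.41 CPM in KO (log2 change 2.11, SE 0.42, edgeR adjusted p = 0.0132). Among cell type markers at E18.5, 2 of 6 macrophage and blood markers tested were higher in KO, Mrc1 (1.82, SE 0.18) and Adgre1 (1.43, SE 0.27), and the sum of that list was 37.2 to 39.6 CPM in HT and 70.9 to 90.6 CPM in KO. The endothelial receptor Tek was higher (0.87, SE 0.18) and Pou5f1, which encodes Oct4, was lower (-0.81, SE 0.18). Their part in the Hox values of that age was not tested.

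From E18.5 to D2.5 these lists had members called in both directions in HT, beside a median of -0.51 over all genes. Their counts stand against 21.4% of all genes that rose and 33.4% that fell, or 19.6% and 25.5% with the GC curve removed, and several lie near these shares. Of 34 Polycomb genes 14 rose and 11 fell (median 0.11), and with the GC curve removed 8 rose and 4 fell. Yaf2, a partner of the ubiquitin ligase complex, rose by 2.66 (SE 0.27), and Pcgf1, a defining subunit of another such complex, fell by 4.37 (SE 0.80). Both calls stood with the GC curve removed (1.74 and -4.18), while those of Phf1 (-2.86, then -0.78 with adjusted p = 0.16) and Phc2 (-2.62, then -0.50 with adjusted p = 0.14) did not. Of 12 trithorax and demethylase genes 3 rose and 5 fell (median -0.18), led by Kmt2b (-2.77, SE 0.24), and with the GC curve removed 4 rose and 3 fell. Of 9 cofactors 2 rose and 5 fell (median -1.43): Pbx2 fell by 3.28 (SE 0.31) and Pbx4 by 4.04 (SE 0.94), both also with the GC curve removed, and Meis1 fell by 2.17 (SE 0.78). Suz12 rose by 2.60 (SE 0.20) over this interval.

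The same shares stand beside the counts of other developmental genes. In the fit of the D2.5 libraries alone, 24 of the developmental regulators, 2 flanking homeobox genes and 1 noncoding gene passed the filter. The rest entered the age fit mainly through the earlier ages, which favours falls. Of 53 other developmental regulators known as Polycomb targets 3 rose and 29 fell in HT, with a median of -2.53 as fitted and -2.42 with members that had no count set at their bound. With the GC curve removed 6 rose and 16 fell, the latter near the share of all genes. Hand2, a limb and heart regulator, read 4.89 to 8.21 CPM in E18.5 HT and had no count in D2.5 HT. Of the 9 Hox-like and flanking homeobox genes tested 0 rose and 6 fell (5 with the GC curve removed). Cdx2, an activator of Hox clusters in the embryo, had no count in E16.5 HT, read 1.74 to 2.91 CPM in E18.5 HT and had no count in any D2.5 library. It passed in both intervals (edgeR adjusted p = 0.0123 for the rise and 0.00386 for the fall). Without counts in E16.5 HT and at D2.5, Cdx2 passed the filter only through other groups, which favours both calls. Of 5 noncoding genes of the clusters tested 0 rose and 2 fell (3 with the GC curve removed): Hottip, beside Hoxa13, read 1.04 to 1.74 CPM in E18.5 HT and had no count in the 9 D2.5 libraries, and Halr1, a noncoding gene of HoxA, fell by 2.54 (SE 0.99).

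Repeat names under DNA methylation control are given as values beside the Hox sum, with no test. At E18.5 IAPEz-int read 564 ± 82.6 CPM in HT and 1567 ± 58.6 CPM in KO, and L1Md_A 2788 ± 173 and 8782 ± 1253 CPM. The Hox sum at that age was 1.04-fold lower in KO, with overlapping libraries.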

How the data were processed

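Raw read counts per gene and repeat name were deposited by the authors as 3 tables, 1 per age. The submitters' processing notes name STAR, featureCounts, edgeR, Bowtie and mm9, with no roles or versions. Per the labels' protocols, RNA of sorted cells was amplified (NuGEN Ovation) before sequencing. The 1217 repeat names were left out of gene totals. Genes were filtered with filterByExpr (minimum count 10, total 15), scaled by TMM and tested with edgeR 4.0.16 (R 4.3.3; quasi-likelihood, Benjamini-Hochberg adjusted p under 0.05). E16.5 and E18.5 were each fitted alone, D2.5 with its 9 libraries, and ages and interactions in 1 fit of the 18 HT and KO libraries. Alternatives were DESeq2 1.42.0, limma-voom (limma 3.58.1), other scalings and filters, a replicate block and each library left out. After the data were seen, a fit of 12 libraries and a GC correction were added: a spline (5 degrees of freedom, genes above 5 CPM) of each library's deviation on the GC content of GENCODE M21 transcripts, added to the offsets. The members and lists were chosen with earlier results of these data known. Per-library values are given for every Hox gene that passed a comparison and for the 10 with the highest mean CPM, except 1 member that enters counts and sums but is not reported on its own here, and list genes were named by size of change and by level. Scripts were tested on simulated data. Intervals are 1.96 SE or, for ratios of summed counts, cover counting error only. Figures were drawn with matplotlib 3.10.9.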

Additional observations from a re-analysis of the deposited data

How the results depend on the processing

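Few reads limit these results: 236 to 2029 Hox counts per library, and 9 of 39 genes were too low for the age fit. Each age has its own table, and 3 libraries per group leave single libraries much weight. Of all alternative values, 649 gene values kept their direction and side of the threshold, 63 lost the threshold and 8 changed sign. Counts and sums were judged by their distance from the main value: 192 stayed within a set margin and 30 moved beyond it. For KO against HT at E18.5, Hoxc8 ran from -0.82 (without KO replicate 1) to 0.16 with each library left out, Hoxd1 from -0.065 to 0.079 and Hoxd8 from -0.033 to 0.49, and Hoxd1 was -0.0098 with scaling over genes and repeat names and -4.97e-04 with no filter. The number of Hox genes called there was 0 to 1 with each library left out. For E18.5 against E16.5 in HT, the number called was 8 with DESeq2, 13 with limma-voom, 13 with only the 12 libraries and 0 to 8 with each library left out. In KO it was 5 with limma-voom, 10 with only the 12 libraries and 0 to 3 with each library left out. For D2.5 against E18.5 the leave-one-out counts were 13 to 17 in HT and 12 to 19 in KO. The cause was not tested.

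The summed Hox level with scaling over genes and repeat names, whose totals are larger, was 24.8 and 28.7 CPM in E16.5 HT and KO, 60.4 and 57.0 CPM in E18.5 HT and KO, and 30.1, 38.7 and 48.4 CPM in D2.5 WT, HT and KO. With gene totals alone it was 180.2 CPM in E18.5 HT, 64.6 CPM in D2.5 WT and 101.9 CPM in D2.5 KO. Without Hoxb4 it was 133 CPM in E18.5 HT, 65.4 CPM in D2.5 WT and 96.7 CPM in D2.5 KO. With each library left out it ran from 43.8 to 72.6 CPM in E16.5 HT, 52.6 to 70.5 CPM in E16.5 KO, 142 to 152 CPM in E18.5 HT, 117 to 153 CPM in E18.5 KO, 69.7 to 78.4 CPM in D2.5 WT, 88.1 to 104 CPM in D2.5 HT and 109 to 124 CPM in D2.5 KO.

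The labels give same-numbered HT and KO libraries only a number in common. The correlations of their deviations were -0.03 to 0.76 at E16.5, 0.09 to 0.25 at E18.5 and -0.02 to 0.03 at D2.5. At these ages 4 of 6, 5 of 6 and 2 of 6 libraries correlated best with their own number. At E16.5 the values were 0.60 for replicate 1 and 0.76 for replicate 3, against -0.70 and -0.62 for these replicates crossed. Before birth the number thus went with some shared variation, which the main fits did not model. With the replicate block, 10 Hox genes were called in HT and 4 in KO for E18.5 against E16.5, 16 in each genotype for D2.5 against E18.5 (the fall of Hoxd3 in KO was lost), and 0 in each comparison of KO with HT. The blocks lay within an age, so in the age comparisons they took spread between replicates out of the error. The block counts for age are therefore no better supported than those of the main fits.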
